A study of Mus musculus with 16 samples.

Results

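The 32 genes described here are genes of osteoblasts, osteocytes and chondrocytes other than collagens. They were chosen by name, with earlier results of these data known, as transcripts of bone-forming and cartilage cells. All 32 were found among the 38926 genes of the metaphysis and marrow table, the 38926 entries of the Lats2 table and the 21603 genes of the Yap1/Taz files. By textbook role, 21 of them are bone genes and 11 are cartilage genes. The libraries were made from endothelial cells (ECs) sorted from mouse bone, so these are mostly genes of other cells of the same tissue, and the question was at what level they were found in sorted bone ECs and whether that level moved with region or genotype.

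Osteoblasts lay down a collagen matrix and then mineralize it. The transcription factors Runx2 and Sp7 (osterix) set their identity, enzymes such as tissue-nonspecific alkaline phosphatase (Alpl) free phosphate for mineral, and acidic or calcium-binding proteins such as osteocalcin (Bglap), osteopontin (Spp1) and bone sialoprotein (Ibsp) bind to it. Chondrocytes of the growth plate, which lies next to the metaphysis, depend on Sox9 and surround themselves with aggrecan, matrilins and link protein. The vessels of the metaphysis run along newly formed bone beneath the growth plate, whereas the sinusoids of the diaphysis run through marrow.

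The data are 16 RNA-seq libraries of C57BL/6 mice in 6 groups. Metaphyseal ECs (mpECs, 3 libraries) and ECs of the diaphyseal marrow (bmECs, 3 libraries) came from mice that the labels call wild type and that, by the methods, carried the Cdh5-mT/nG reporter, in which the Cdh5 promoter marks ECs. The Yap1/Taz experiment compared 3 control libraries with 3 libraries labelled as endothelial knockout (Yap1/Taz iΔEC) at postnatal day 21. The Lats2 experiment compared 2 control with 2 conditional knockout libraries (Lats2 iΔEC). The labels give no age for the mpEC, bmEC and Lats2 libraries, and the methods give 3 weeks for the sorted bone ECs of every group. Controls were Cre-negative and carried the same alleles as their mutants, Yap1flx/flx with Wwtr1flx/flx (Wwtr1 encodes Taz), or Lats2flx/flx. Mutants carried in addition Cdh5CreERT2, a Cre driven by the Cdh5 promoter that is active in ECs after tamoxifen. All levels are given as FPKM, fragments per kilobase of transcript and scaled to sequencing depth, so they can be compared between genes. No unit is named for the Yap1/Taz values, and FPKM was assumed for them. The 3 experiments were normalized separately, and levels are set side by side across them without a test.

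The targeted genes were checked first. Wwtr1 stood at 10.01, 9.88 and 10.3 FPKM in the Yap1/Taz controls and at 15.3, 19.6 and 19.5 FPKM in the libraries labelled Yap1/Taz iΔEC, and Yap1 at 1.07, 1.62 and 0.995 against 1.43, 1.03 and 0.989 FPKM. The transcript totals therefore go against the labels for Wwtr1 and do not separate the groups for Yap1. A sum over the whole gene, however, cannot show the loss of single exons. By qPCR, the paper reports less Yap1 and Wwtr1 transcript in freshly isolated Yap1/Taz iΔEC bone ECs, and weaker Yap1 immunostaining in mutant bone vessels. Lats2 stood at 23.4 and 24.03 FPKM in the controls and at 19.2 in both libraries labelled Lats2 iΔEC. The total was thus lower in the mutant-labelled libraries, but most of it remained. For this gene too, the paper reports a significant decrease of transcript in mutant bone ECs after isolation. The endothelial markers were present throughout, all 10 of 10 above 0 in every library, with summed levels from 613 FPKM in the Yap1/Taz controls to 2918 FPKM in the Lats2 controls. Transcripts of blood cells were abundant as well, with 8 neutrophil genes summing to between 721 and 28511 FPKM and the listed haemoglobin and red cell genes to between 243 and 60395 FPKM.

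The sequences before the transcription start are shown for 4 members whose levels take different courses below. Bglap, Spp1 and Serpinf1 were lower in bmECs than in mpECs, and Ibsp was not. Each line is the 250 bases before the start in the RefSeq annotation of GRCm38.p6, read 5′ to 3′ on the gene's strand, at chr3:88384467-88384716 (minus strand, Bglap), chr5:104434861-104435110 (plus, Spp1, the upstream of its 2 listed starts), chr11:75422624-75422873 (minus, Serpinf1) and chr5:104299037-104299286 (plus, Ibsp). Capitals mark TGTGGT on either strand (ACCACA on the other), the core letters that RUNX factors bind, and TATAAA on the gene's strand.
Bglap: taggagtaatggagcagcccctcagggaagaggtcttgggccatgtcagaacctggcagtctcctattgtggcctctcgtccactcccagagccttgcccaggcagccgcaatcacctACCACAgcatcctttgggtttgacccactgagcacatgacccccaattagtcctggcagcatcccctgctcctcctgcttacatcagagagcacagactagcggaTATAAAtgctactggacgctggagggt
Spp1: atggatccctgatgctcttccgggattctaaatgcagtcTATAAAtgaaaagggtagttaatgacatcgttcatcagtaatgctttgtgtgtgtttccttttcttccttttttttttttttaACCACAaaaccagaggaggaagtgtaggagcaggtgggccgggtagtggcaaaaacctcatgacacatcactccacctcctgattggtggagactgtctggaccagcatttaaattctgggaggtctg
Serpinf1: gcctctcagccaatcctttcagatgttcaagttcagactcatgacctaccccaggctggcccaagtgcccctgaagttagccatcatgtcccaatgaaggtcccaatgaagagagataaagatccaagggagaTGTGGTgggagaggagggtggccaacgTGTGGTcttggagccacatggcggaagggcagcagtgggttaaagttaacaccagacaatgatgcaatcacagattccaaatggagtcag
Ibsp: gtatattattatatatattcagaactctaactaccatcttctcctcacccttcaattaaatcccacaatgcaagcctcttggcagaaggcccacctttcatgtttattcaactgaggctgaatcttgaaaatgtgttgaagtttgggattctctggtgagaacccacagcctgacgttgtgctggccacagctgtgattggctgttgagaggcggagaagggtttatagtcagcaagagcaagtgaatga
TGTGGT starts 132 bases before the start in Bglap, 128 in Spp1, and 117 and 90 in Serpinf1, and these letters are not in the Ibsp window. TATAAA lies 27 bases before the start in Bglap and 211 in Spp1. Of the 26 members with a listed promoter, 10 held TGTGGT on either strand, among them 7 of 17 bone genes and 3 of 9 cartilage genes, against 15.9% of the 27025 genes with a promoter. Of the 12 members called lower in bmECs that have a listed promoter, 5 held TGTGGT and 7 (Ifitm5, Omd, Epyc, Chad, Ptn, Matn3 and Lect1) did not, and Ogn, which was not called, held it. TATAAA was found in 5 of the 26 members and in 8.9% of all these genes. A gene counts as holding a motif if any of its listed starts does, and a match is a description of letters and not a site of binding.

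Several members are neighbours on the chromosome. Dmp1, Ibsp, Mepe and Spp1 lie in this order on chromosome 5 (GRCm38, GENCODE M21, Dmp1 from 104202613 to 104214102 and Spp1 from 104435118 to 104441050), with gaps of 85.1, 13.9 and 96.5 kb between them. Bglap2 (chromosome 3, 88377736 to 88378699) and Bglap (88383501 to 88384464) are near-identical copies 4.8 kb apart, so reads may have been split between them or dropped, and their levels are uncertain one by one. Omd and Ogn are 15.2 kb apart on chromosome 13. Spp1 shares 18.8% of its exon bases with a predicted gene on the same strand and Ifitm5 29.7%, and Epyc shares 40.6% with a predicted gene on the other strand. Whether reads were counted by strand is not given in the sources used here.

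Between the regions of bone, most members were higher in mpECs. In 24 of the 32, every mpEC library lay above every bmEC library, in 8 the groups overlapped, and in none did every bmEC library lie above every mpEC library. Over all 21547 genes above 0 in at least 1 of these libraries, the mpEC libraries were all above the bmEC libraries for 14.3% and all below for 14.1%. The 24 comprise 14 of 21 bone genes and 10 of 11 cartilage genes. Of the 18 members with a mean of at least 1 FPKM, which were tested with limma on log2(FPKM + 1), 15 were lower in bmECs at a Benjamini-Hochberg adjusted p below 0.05, 0 were higher (also 0 at an unadjusted p below 0.05 and 0 with limma-voom, a fit on reads recovered from the FPKM), and 3 (Ibsp, Alpl and Ogn) did not pass. Across all 11422 genes tested, 10.5% were lower and 13% were higher in bmECs. The median difference of these 18 members was -2.55 on the log2(FPKM + 1) scale, against -7e-04 over all genes tested. However, 10 of the 18 reached the mean of 1 FPKM through the mpECs, and all 10 are among the 15 called lower. The count of 15 and this median therefore describe only the members that passed, and neither is independent of the filter.

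**Figure D1:**
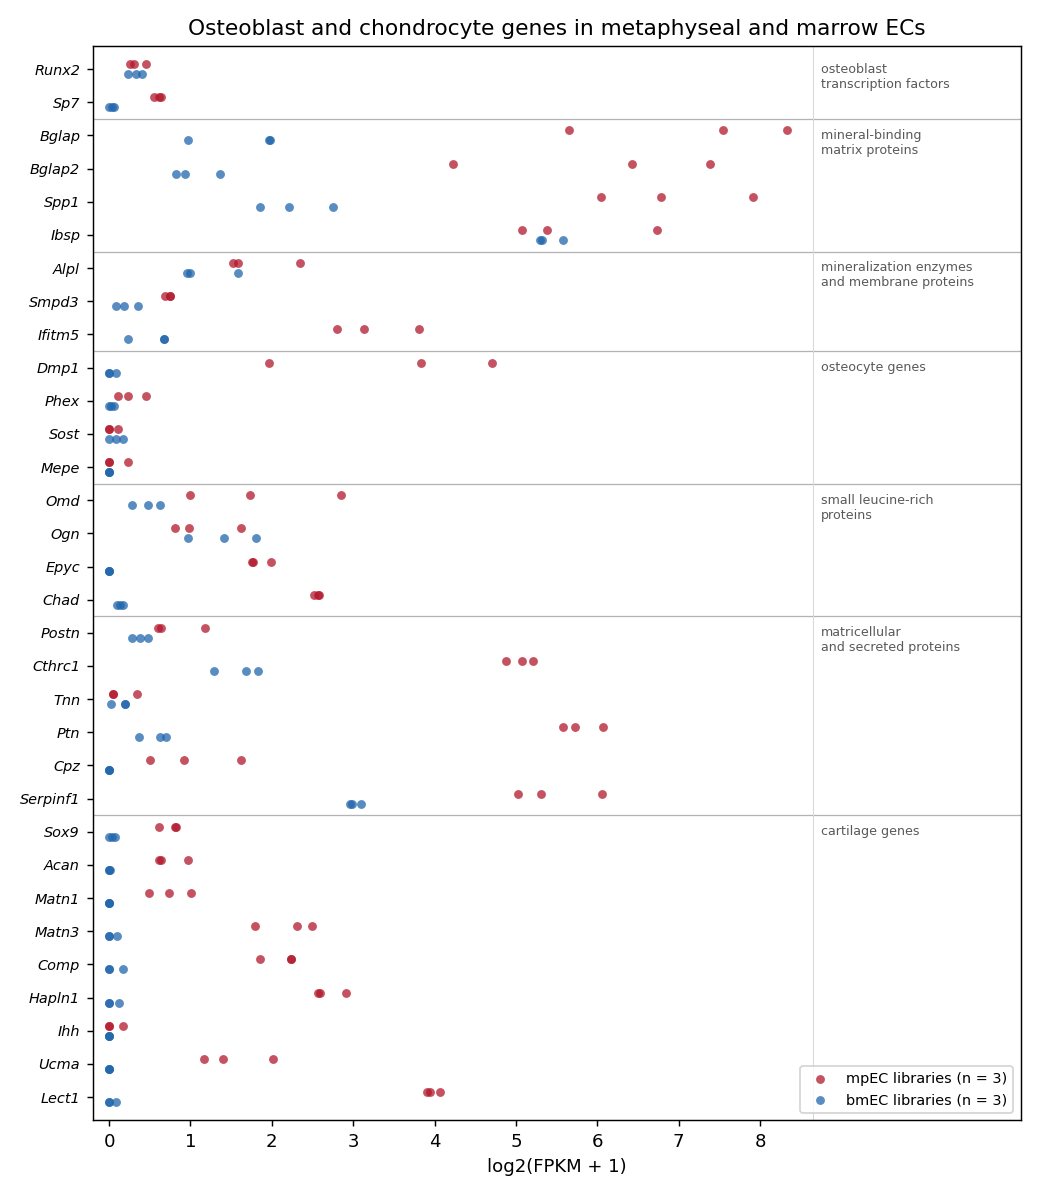
Level of all 32 members as log2(FPKM + 1) on the x axis, one point per library, for 3 mpEC (red) and 3 bmEC (blue) libraries, grouped by role. Points of the colours are apart for 24 members and overlap for 8, among them Runx2, Ibsp, Alpl and Ogn.

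The regulators were near the limit of detection. Runx2, which commits cells to the osteoblast lineage, stood at 0.366, 0.193 and 0.233 FPKM in mpECs and at 0.261, 0.179 and 0.327 FPKM in bmECs, and the groups overlapped. Sp7, which acts after Runx2, was at 0.529, 0.552 and 0.461 FPKM in mpECs and at 0.0418, 0 and 0.0292 FPKM in bmECs, so every mpEC library was higher. Sox9, the regulator of chondrocytes, was at 0.528, 0.776 and 0.747 FPKM in mpECs and at 0.0294, 0.0511 and 0 FPKM in bmECs, again without overlap. None of the 3 reached a mean of 1 FPKM, and none was tested.

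The mineral-binding proteins Bglap, Bglap2 and Spp1 were lower in bmECs. Bglap was at 322, 185 and 49.2 FPKM in mpECs and at 2.95, 2.91 and 0.962 FPKM in bmECs. The mean was 81.5-fold higher in mpECs, and the difference on the log2 scale was -5.53 ± 0.62 (SE, adjusted p = 0.00063). Bglap2 followed at 166, 85.1 and 17.7 against 0.774, 1.57 and 0.902 FPKM (-4.97 ± 0.68, adjusted p = 0.00165). The 2 osteocalcin genes were high in every mpEC library, but mpEC replicate 3 held less than the other 2. Spp1, a secreted phosphoprotein that binds mineral and integrins, was at 239, 65.1 and 109 FPKM in mpECs and at 3.61, 5.71 and 2.63 FPKM in bmECs (34.5-fold by the means, -4.64 ± 0.43, adjusted p = 0.000267).

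Ibsp did not share this pattern. It was at 106, 40.6 and 32.8 FPKM in mpECs and at 38.8, 46.8 and 38.4 FPKM in bmECs, where it was the highest of all members. The difference was -0.33 on the log2 scale with a 95% interval from -1.20 to 0.54 (adjusted p = 0.565), an interval that does not reach the differences of Bglap and Spp1. Without mpEC replicate 1 the difference was 0.17, with the sign turned and still short of the threshold. In bmECs Ibsp therefore stood at 41.3 ± 4.71 FPKM (SD, n = 3), beside 2.27 ± 1.14 FPKM for Bglap and 3.98 ± 1.57 FPKM for Spp1. On chromosome 5, Mepe lies between Ibsp and Spp1.

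Among the enzymes and membrane proteins of mineralization, Ifitm5 (Bril), a small membrane protein of osteoblasts, was at 13, 7.79 and 5.96 FPKM in mpECs and at 0.172, 0.597 and 0.6 FPKM in bmECs (-2.72 ± 0.26, adjusted p = 0.000284). Alpl, which is not particular to bone, was at 4.07, 1.99 and 1.86 FPKM against 0.994, 1.99 and 0.948 FPKM and did not pass (-0.63, 95% interval -1.24 to -0.03, adjusted p = 0.125), while with limma-voom on recovered reads it did (adjusted p = 0.0394). Smpd3, a sphingomyelinase needed for mineralization, was below 1 FPKM everywhere in this comparison, from 0.613 to 0.681 FPKM in mpECs and from 0.0616 to 0.283 FPKM in bmECs.

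Of the osteocyte genes only Dmp1 was expressed at a level that could be tested. Dmp1, an acidic protein that osteocytes secrete, was at 25, 2.91 and 13.2 FPKM in mpECs and was listed at 0 in 2 bmEC libraries and at 0.0616 FPKM in the third (-3.47 ± 0.59, adjusted p = 0.00434). Phex, an endopeptidase of phosphate control, reached 0.373 FPKM at most. Sost, the Wnt inhibitor sclerostin of mature osteocytes, reached 0.123 FPKM, and Mepe, a matrix phosphoglycoprotein, was above 0 in 1 mpEC library alone, at 0.179 FPKM.

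The small leucine-rich proteins, which bind to collagen fibrils, went in different ways. Omd (osteomodulin) was at 6.24, 2.32 and 0.993 FPKM in mpECs and at 0.39, 0.544 and 0.218 FPKM in bmECs. Its difference of -1.40 ± 0.41 passed narrowly (adjusted p = 0.0432) and fell short without the filter on low values (adjusted p = 0.112), and also without mpEC replicate 2 (0.0831) or without bmEC replicate 1, 2 or 3 (0.0972, 0.0833 and 0.113). Without mpEC replicate 1 its mean was under 1 FPKM and it was not tested. Ogn (osteoglycin) was at 2.07, 0.75 and 0.973 against 0.957, 2.5 and 1.67 FPKM, with overlapping groups (0.26, 95% interval -0.37 to 0.90, adjusted p = 0.531). Epyc (epiphycan) and Chad (chondroadherin), the members of this class found in cartilage, were steady in mpECs at 2.97, 2.39 and 2.41 FPKM and at 4.91, 4.71 and 4.96 FPKM. Epyc was listed at 0 in all 3 bmEC libraries, and Chad was at 0.0723, 0.126 and 0.101 FPKM there (Epyc -1.84 ± 0.14, adjusted p = 0.0001; Chad -2.41 ± 0.12, adjusted p = 2.1e-05).

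The secreted and matricellular proteins included members that varied little among libraries. Ptn (pleiotrophin), a heparin-binding growth factor, was at 46.7, 51.8 and 66.4 FPKM in mpECs and at 0.541, 0.628 and 0.294 FPKM in bmECs, 113-fold higher by the means (-5.22 ± 0.15, adjusted p = 3e-06). Cthrc1, a secreted protein of cells that build collagen matrix, was at 36, 28.4 and 32.7 against 2.55, 2.21 and 1.44 FPKM (-3.46 ± 0.16, adjusted p = 1.7e-05). Serpinf1, which encodes PEDF, a secreted serpin that blocks angiogenesis and whose loss impairs mineralization, was at 65.5, 38.7 and 31.4 FPKM in mpECs and remained at 7.57, 6.81 and 6.95 FPKM in bmECs (-2.44 ± 0.23, adjusted p = 0.000292). These 3 genes separated the groups by wide margins in every library. Postn (periostin) ranged from 0.513 to 1.26 FPKM in mpECs and from 0.217 to 0.39 FPKM in bmECs, and Cpz (carboxypeptidase Z) from 0.412 to 2.09 FPKM in mpECs and was listed at 0 in all bmEC libraries. Tnn (tenascin N) stayed at or below 0.265 FPKM in both.

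The cartilage genes were low in mpECs and close to absent in bmECs. Lect1 (chondromodulin, Cnmd in current annotation), a cartilage protein that inhibits angiogenesis, was at 14.1, 15.7 and 14.4 FPKM in mpECs and was listed at 0, 0.0574 and 0 FPKM in bmECs (-3.95 ± 0.11, adjusted p = 3e-06). Hapln1, the link protein that ties aggrecan to hyaluronan, was at 6.5, 5.06 and 4.93 FPKM against 0, 0 and 0.084 FPKM (-2.65 ± 0.14, adjusted p = 2.7e-05). Matn3 (matrilin 3) was at 3.95, 4.66 and 2.46 against 0, 0.0702 and 0 FPKM (-2.17 ± 0.20, adjusted p = 0.000225), and Comp (cartilage oligomeric matrix protein) at 2.6, 3.72 and 3.69 against 0, 0.131 and 0 FPKM (-2.05 ± 0.16, adjusted p = 0.000123). All 4 were above every bmEC library in every mpEC library. Ucma (1.25 to 3.03 FPKM), Acan (0.528 to 0.954 FPKM) and Matn1 (0.404 to 1 FPKM), which encode an unusual Gla protein, aggrecan and matrilin 1, were also present in all mpEC libraries, whereas Ihh, the growth plate signal Indian hedgehog, was above 0 in 1 mpEC library only (0.123 FPKM). For genes with so few fragments in bmECs, differences on the log2(FPKM + 1) scale understate the change.

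The members varied among the 3 mpEC libraries in distinct ways. Of the 10 bone genes at 1 FPKM or more in each mpEC library, 9 were highest in replicate 1, and the ratio of the highest to the lowest library ran from 1.27 (Cthrc1) to 9.37 (Bglap2) with a median of 2.70. Of the 7 cartilage genes at that level, 2 were highest in replicate 1, 3 in replicate 2 and 2 in replicate 3, and the ratio ran from 1.05 (Chad) to 2.43 (Ucma) with a median of 1.32. The bone members summed to 1037, 514 and 364 FPKM in the 3 libraries and the cartilage members to 38.1, 40.3 and 37.8 FPKM. Among the bone members, the 4 mineral-binding genes summed to 832, 376 and 208 FPKM. The 6 secreted and matricellular genes summed to 152, 120 and 131 FPKM, so not all bone transcripts varied alike. Cartilage transcripts had nearly the same total in the 3 libraries. Without mpEC replicate 1, 13 members were lower in bmECs in place of 15, as Omd and Epyc then had means under 1 FPKM and were not tested. These sums are descriptions over 3 libraries, with no test.

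**Figure D2:**
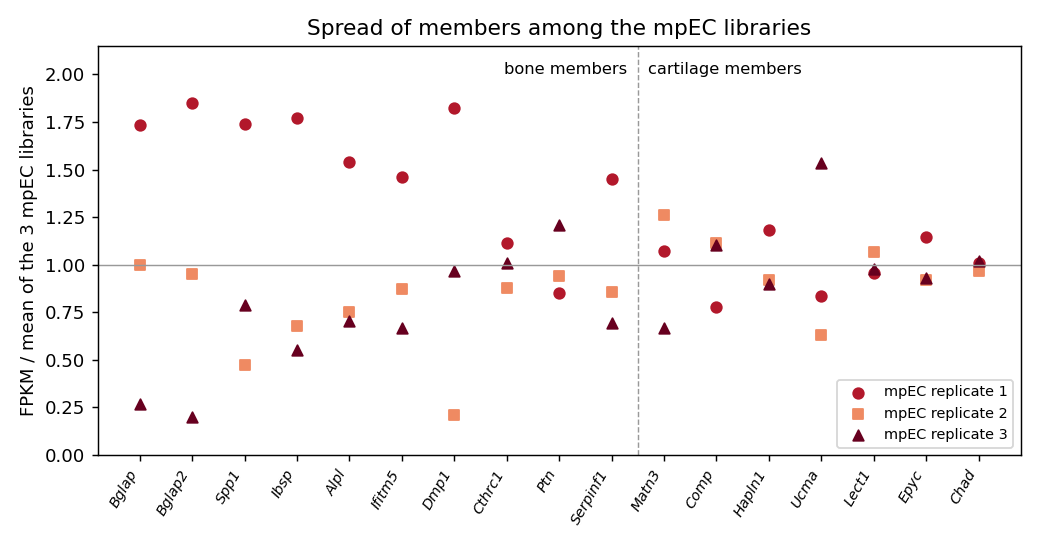
FPKM of each member in each mpEC library divided by its mean over the 3 mpEC libraries (y axis), for the 10 bone and 7 cartilage members at 1 FPKM or more in all 3. Bone members spread from 0.198 to 1.85 with replicate 1 highest for 9 of 10, and cartilage members from 0.632 to 1.53.

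Markers of other cells went different ways in this comparison. The 9 osteoclast markers summed to 42.8 to 78.1 FPKM in mpECs and to 24.7 to 28.3 FPKM in bmECs, and the 3 that were tested (Acp5, Ctsk and Mmp9) were all lower in bmECs, with Calcr at 0 in every library. Neutrophil markers summed to 11956 to 28511 FPKM in mpECs, highest in replicate 1, and to 9726 to 14143 FPKM in bmECs, with 1 of 8 lower in bmECs. The 10 endothelial markers summed to 1629 to 2000 FPKM in mpECs, lowest in replicate 1, and to 2017 to 2145 FPKM in bmECs. Marrow stromal and mural markers overlapped (47 to 51.2 against 29.4 to 69.8 FPKM), although Lepr was higher in bmECs. The sums of red cell markers (28251 to 52878 against 42478 to 60395 FPKM) and megakaryocyte markers (76.9 to 324 against 79 to 467 FPKM) overlapped too. Of these, 0 of 7 and 0 of 4 tested genes were called. The part of other cells in the members' levels was not tested, and in bulk RNA a smaller number of cells of a type cannot be told apart from less RNA per cell.

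The other genes of these lineages that were listed beside the members went both ways. Of 43 such genes 42 were found and 20 tested, of which 8 were lower in bmECs, 3 were higher and 9 did not pass, with a median of -0.63. Lum (lumican), a collagen-binding proteoglycan, was at 33.2, 13.8 and 9.33 FPKM in mpECs and at 0.703, 1.22 and 0.614 FPKM in bmECs. Fgf23, the phosphate-lowering hormone that osteocytes secrete, was at 1.07, 1.33 and 3.69 FPKM in mpECs and higher in bmECs at 19.8, 15.5 and 20.7 FPKM (2.79, adjusted p = 0.000443). Bgn (biglycan) and Lrp6, a Wnt coreceptor, were also higher in bmECs, with differences of 0.60 (adjusted p = 0.0117) and 0.53 (adjusted p = 0.00941). Of the 7 further regulators of the lineage, 2 were tested and 0 passed (0 at an unadjusted p below 0.05 with limma).

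In the Yap1/Taz experiment most members were low and 2 passed the test. Of 9 members tested, Bglap and Bglap2 were lower in the libraries labelled Yap1/Taz iΔEC, 0 were higher (0 at an unadjusted p below 0.05 and 0 with limma-voom) and 7 did not pass, against 0.424% lower and 0.883% higher among all 11320 genes tested. The median difference of these 9 was -0.47, against -0.0047 over all genes tested, but Bglap, Bglap2 and Ibsp reached 1 FPKM through the controls. With no filter on low values 0 members were called and their median was -0.0095. Bglap was at 1.7, 1.88 and 2.61 FPKM in controls and at 0.693, 0.277 and 0.285 FPKM in the mutant-labelled libraries (-1.11 ± 0.20, adjusted p = 0.0387). Bglap2 was at 2.68, 1.23 and 1.71 against 0.455, 0 and 0 FPKM (-1.31 ± 0.24, adjusted p = 0.0406). The groups were apart for both, but these levels rest on about 5 to 10 reads for Bglap and 4 to 6 for Bglap2 in each control library and on 1 to 2 and 0 to 1 in the others. Neither passed with limma-voom on recovered reads (adjusted p = 0.0998 and 0.0748), with no filter on low values (limma, adjusted p = 0.0679 and 0.0848) or at an adjusted p of 0.01 with an absolute log2 fold change over 0.5. With the replicate number as a block Bglap did not pass (limma, adjusted p = 0.0753) and Bglap2 did (0.0398). Both calls were lost without replicate 2 or 3 of the mutant-labelled group. Without control replicate 2 Bglap did not pass (adjusted p = 0.089), and Bglap without control replicate 3 and Bglap2 without any 1 control library had means under 1 FPKM and were not tested.

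The other matrix genes of bone in this experiment are given by value. Ibsp was at 2.65, 1.4 and 1.95 FPKM in controls and at 0.932, 0.993 and 0.936 FPKM in libraries labelled Yap1/Taz iΔEC, without overlap, and did not pass (-0.60, 95% interval -1.01 to -0.19, adjusted p = 0.13). Spp1 was at 5.88, 4.32 and 9.61 against 6.89, 2.49 and 2.78 FPKM (-0.63, adjusted p = 0.335) and Ifitm5 at 3.57, 3.49 and 2.28 against 2.42, 0.966 and 2.73 FPKM (-0.47, adjusted p = 0.346), both with overlapping groups. Postn and Ptn had means of 1.18 and 1.39 FPKM in controls and 1.44 and 1.78 FPKM in the others and did not pass (adjusted p = 0.707 and 0.594). Dmp1, Mepe, Epyc and Ucma were listed at 0 in all 6 libraries, and the 11 cartilage members summed to 1.13 to 1.3 FPKM in controls and 0.455 to 1.14 FPKM in the others. Of the 32 members, 5 (Bglap, Bglap2, Ibsp, Alpl and Matn3) had every control above every other library, 1 (Sp7) had the reverse, and 26 overlapped. The share over all genes was not computed in this experiment, so these counts have no background and carry no conclusion.

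Runx2 was found at a higher level in this experiment than in the others, which were normalized separately, and so were other listed genes such as Lrp5 (14.1 to 21.4 FPKM, against at most 5.01 FPKM elsewhere), while Sparc was lower (180 to 275 FPKM, against at least 2249 FPKM elsewhere). Runx2 was at 4.43, 4.37 and 3.99 FPKM in controls and at 4.73, 4.08 and 4.94 FPKM in libraries labelled Yap1/Taz iΔEC (0.08, 95% interval -0.19 to 0.36, adjusted p = 0.779), from about 186 to 266 reads per library, whereas it was at most 0.366 FPKM in the 10 libraries of the other experiments. Serpinf1 was at 13.8, 14.5 and 16.4 against 16.3, 15.9 and 18.3 FPKM (0.17, adjusted p = 0.452), below its level in mpECs. Sp7 and Sox9 stayed below 1 FPKM in this experiment. Sp7 was at 0, 0.05 and 0.0556 FPKM in controls and at 0.147, 0.235 and 0.0606 FPKM in libraries labelled Yap1/Taz iΔEC. Its groups were apart only narrowly, at levels too low to be tested. In control replicates 2 and 3 and mutant-labelled replicate 3, 1 read in a transcript of 2 kb was worth 0.0726, 0.0808 and 0.088 FPKM. Sp7 has 3398 exon bases, so 1 read is worth less in it. These Sp7 values thus stand for very few reads, and the separation carries no conclusion. Sox9 was above 0 in 1 of 6 libraries (0.0851 FPKM). Bglap and Ibsp reached 2.61 and 2.65 FPKM at most in these libraries.

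Around these members, endothelial markers summed to 613 to 640 FPKM in controls and 791 to 918 FPKM in libraries labelled Yap1/Taz iΔEC, with 9 of 10 higher at an unadjusted p below 0.05 and 1 (Cldn5) after adjustment. The 9 osteoclast markers summed to 18.1 to 26.6 and 20 to 31.2 FPKM, and the 8 neutrophil markers to 2126 to 2763 and 1683 to 3973 FPKM. Whether these shifts have a part in the Bglap levels was not tested. Of the 43 other lineage genes, 16 were tested and 1, Atf4, a stress-response factor that osteoblasts need for matrix synthesis, was higher, at 205, 208 and 215 FPKM against 144, 141 and 147 FPKM (0.54, adjusted p = 0.0347).

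**Figure D3:**
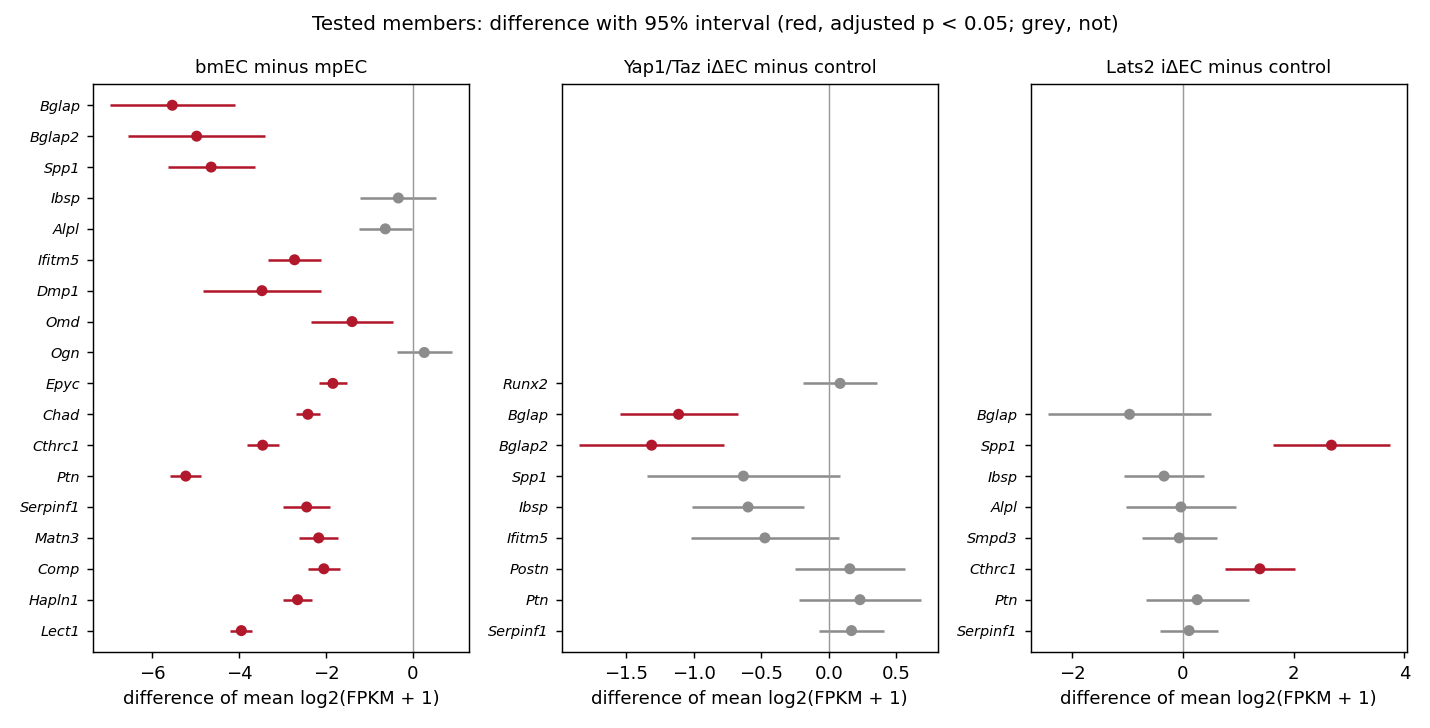
Difference of group means of log2(FPKM + 1) with its 95% interval (x axis) for the members tested in each comparison, 18 between bmECs and mpECs, 9 in the Yap1/Taz and 8 in the Lats2 experiment. Red marks members past an adjusted p of 0.05 and grey the rest, and each panel has its own x scale. Bglap and Bglap2 lie left of 0 in the first 2 panels, and Spp1, left of 0 in the first panel, lies right of 0 in the Lats2 panel.

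In the Lats2 experiment 2 members were higher in the libraries labelled Lats2 iΔEC. Of 8 members tested, Spp1 and Cthrc1 passed, 0 were lower (0 at an unadjusted p below 0.05 and 0 with limma-voom) and 6 did not pass, against 11.8% higher and 9.98% lower among all 12453 genes tested, so 2 of 8 is a small count beside a common call. Spp1 was at 6.83 and 3.57 FPKM in controls and at 25.9 and 53.9 FPKM in the mutant-labelled libraries (2.68 ± 0.41, adjusted p = 0.0161). Cthrc1 was at 4.75 and 4.77 against 18.3 and 10.9 FPKM (1.39 ± 0.25, adjusted p = 0.0217). Both genes were apart in all 4 libraries, from about 35 to 56 against 161 to 442 reads for Spp1 and 38 to 45 against 86 to 110 for Cthrc1. With 1 control library left out, the adjusted p was 0.13 or 0.135 for Spp1 and 0.165 or 0.162 for Cthrc1. The group left with 1 library is then assumed to vary like the other group. Without Lats2 iΔEC replicate 2, Spp1 had an adjusted p of 0.0614.

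The other bone members were not called. Dmp1 was at 0.0728 and 0.0609 against 0.384 and 0.873 FPKM, too low to be tested and apart in all libraries. Bglap was at 4.88 and 0.816 FPKM in controls and 0.429 and 0.975 FPKM in the others (adjusted p = 0.284), Bglap2 at 3.84 and 0 against 0 and 0, and Ibsp at 4.96 and 2.6 against 2.43 and 2.91 FPKM (adjusted p = 0.427). Ptn was at 9.75 and 6.65 against 14.4 and 6.66 FPKM, Serpinf1 at 5.88 and 4.7 against 6.85 and 4.85, and Alpl at 3.34 and 3.63 against 5.52 and 1.94, with overlap in each (adjusted p = 0.639, 0.72 and 0.958). Runx2 was at 0.182 and 0.0951 FPKM in controls and at 0.06 and 0.0909 FPKM in the others, and Sp7 at 0.484 and 0.116 against 0.0912 and 0 FPKM. Sox9 lay between 0 and 0.0972 FPKM and overlapped. Runx2, Sp7, Ifitm5, Ogn and Hapln1 were the 5 members with every control above every library labelled Lats2 iΔEC, and 4 (Spp1, Dmp1, Cthrc1 and Postn) had the reverse. Over all 19822 genes above 0 in at least 1 library of this experiment, 28.1% had every control above and 27.3% every control below, so both counts of members are under the background. Ifitm5 was at 0.852 and 1.42 against 0 and 0.567 FPKM and Ogn at 1.27 and 0.529 against 0.522 and 0.395 FPKM, and all 5 had means too low to be tested. The median difference of the 8 members was 0.04, against -0.0033 over all genes tested, and Bglap reached 1 FPKM through the controls.

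Control replicate 1 of this experiment carried most of its cartilage transcripts. It held 8 of 11 cartilage members above 0 with a sum of 4.96 FPKM, while control replicate 2 held 3 with a sum of 0.272 FPKM and the libraries labelled Lats2 iΔEC 2 and 3 with sums of 1.41 and 0.959 FPKM. Comp (1.99 FPKM), Chad (0.957 FPKM) and Lect1 (0.763 FPKM) were its highest cartilage members, against 0.139, 0.1 and 0 FPKM in control replicate 2. The control values of Bglap and Bglap2 rest on the same library.

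**Figure D4:**
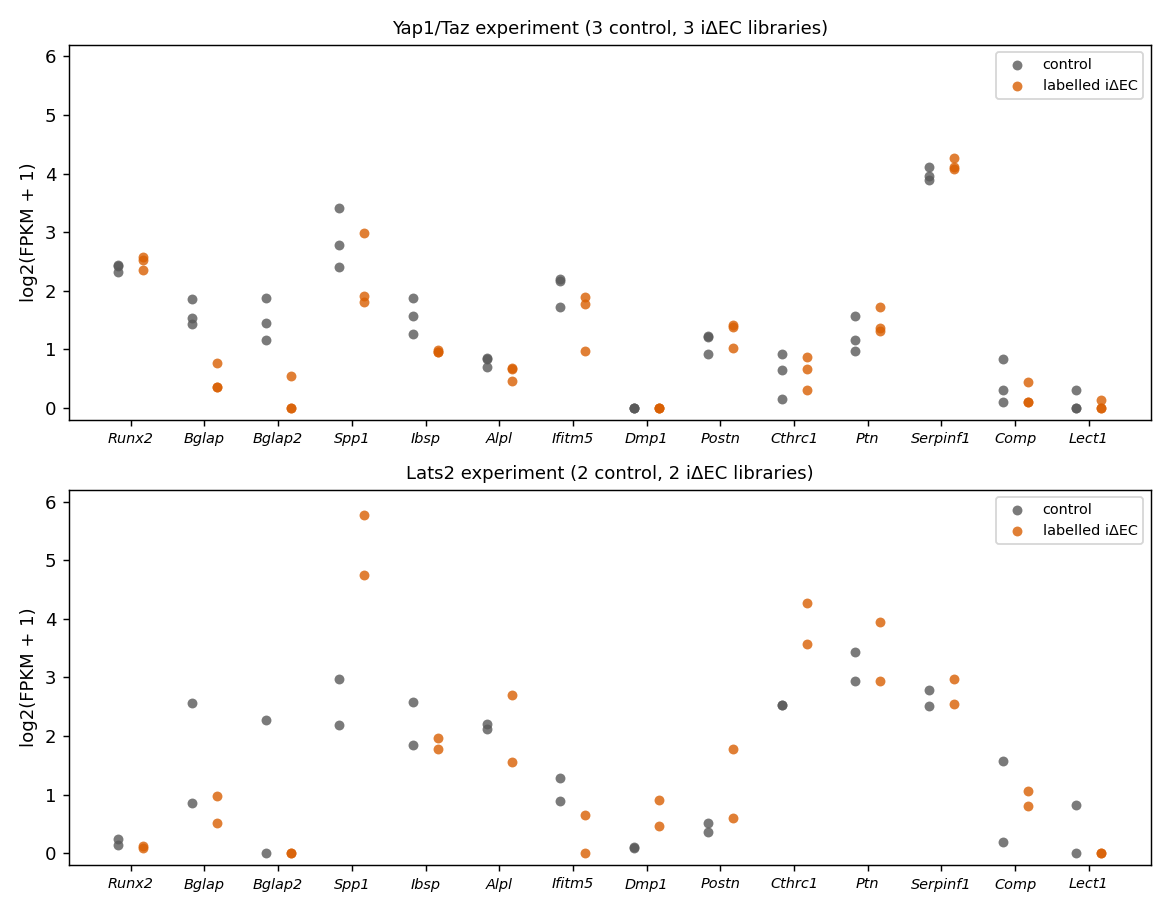
Level as log2(FPKM + 1) on the y axis of 14 members in each library of the Yap1/Taz experiment (upper panel) and the Lats2 experiment (lower panel), grey for controls and orange for libraries labelled iΔEC. In the upper panel the groups are apart for Bglap, Bglap2, Ibsp and Alpl, with controls higher. In the lower panel they are apart for Spp1, Dmp1, Cthrc1 and Postn, with controls lower, and for Runx2 and Ifitm5, with controls higher. Control points for Bglap2 in the lower panel are at 3.84 FPKM and 0.

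Blood cell and stromal markers also moved in the Lats2 experiment. The 8 neutrophil markers summed to 2021 to 2973 FPKM in controls and to 721 to 910 FPKM in libraries labelled Lats2 iΔEC, with 5 of 8 called lower, and the red cell markers to 2436 to 3670 FPKM and 243 to 1395 FPKM, with 1 of 7 called lower. Marrow stromal and mural markers summed to 32 to 40.5 FPKM and 63.7 to 74.1 FPKM, with 3 of 5 tested called higher, among them Acta2 and Rgs5 of mural cells. The 9 osteoclast markers summed to 30.5 to 35.4 and 35.6 to 59.7 FPKM, with Ctsk called higher. The part of these shifts in the levels of Spp1 and Cthrc1 was not tested. Of the other lineage genes, 16 were tested and 1 was called, Mgp (matrix Gla protein), an inhibitor of calcification in vessels and cartilage, at 1.68 and 1.97 FPKM in controls and 17.7 and 42.3 FPKM in libraries labelled Lats2 iΔEC (3.34, adjusted p = 0.0106).

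Set side by side, the 3 experiments share no member that was called in all of them. Bglap had the highest mean of the members in mpECs, although Spp1 and Ptn were above it in replicate 3, and lay between 0.277 and 4.88 FPKM in the 10 libraries of the mutant experiments, Spp1 between 2.49 and 53.9 FPKM, and Ibsp, at 38.4 to 46.8 FPKM in bmECs, lay between 0.932 and 4.96 FPKM. Lect1, at 14.1 FPKM or more in mpECs, did not exceed 0.763 FPKM in the other 13 libraries.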

How the data were processed

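ECs sorted by FACS from bone were sequenced as stranded total RNA, and per the labels the authors used TopHat, HTSeq 0.6.1 and DESeq2 with GRCm38/mm10. The authors deposited FPKM values. The Yap1/Taz files name no unit and were taken as FPKM. Most low values times exon length fell on whole multiples of 1 step per library. That shows scaling to transcript length but cannot tell FPKM from another unit scaled in this way. Such steps gave 4740343 to 14803015 reads per library, and 62.3% to 69.9% of values up to 20 reads came out whole within 0.02 reads. Recovered reads are therefore approximate. No 2 replicates agreed within sampling noise (chi-square per gene at least 3.23). The methods call the sequenced replicates biological triplicates (the Lats2 groups here have 2 libraries each), the labels do not tie libraries to animals, and p-values measure the spread between these libraries.

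Genes whose mean over the libraries compared reached 1 FPKM were compared with limma 3.58.1 (eBayes with trend) on log2(FPKM + 1), two-sided, with Benjamini-Hochberg adjustment over all genes tested. The code was tested on simulated data. Given with values per library were Runx2, Sp7, Sox9, members called in any comparison and the 12 with the highest mean over mpECs and bmECs. Genes of other lists were counted and named where called at a mean level of 5 FPKM or more, and those named otherwise (cell markers, and members below the test) were chosen after their values were seen. Snorc and Epb42 were not matched in the symbol tables. Members and lists were chosen with earlier results of these data known. Promoters are from RefSeq (26 of 32 members matched). Alternatives were another pseudocount, filter, scaling, variance model or threshold, a replicate block, leaving out each library and, chosen after seeing the data, limma-voom.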

Additional observations from a re-analysis of the deposited data

How the results depend on the processing

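Between mpECs and bmECs the number of members lower in bmECs stayed within 13 to 15 with each library left out, was 16 with limma-voom and 20 with no filter, where all members were tested, and fell to 8 with the filter set at 5 FPKM, where fewer members were tested. The median difference of the tested members, -2.55, was -4.71 with a pseudocount of 0.1, -1.19 with a pseudocount of 5, -1.21 with no filter, -3.95 with the filter at 5 FPKM and -5.75 with limma-voom, and lay between -2.69 and -2.43 with each library left out. Of the settings in which the 15 called members were tested, 222 kept the call and 9 lost it, and all 9 concern Omd. Settings that left a member untested are not counted. These are Omd and Epyc without mpEC replicate 1, and members with a mean under 5 FPKM at that filter. Ibsp ran from -0.66 (without mpEC replicate 3) to 0.17, reversed without mpEC replicate 1, and the cause was not tested.

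In the Yap1/Taz experiment the 2 members called lower became 1 with a pseudocount of 0.1 or without the trend, 0 with no filter, with the filter at 5 FPKM (neither was tested), under an adjusted p of 0.01 with an absolute log2 fold change over 0.5, and with limma-voom, and 0 to 2 with each library left out, 0 of them without control replicate 2 or 3 or without replicate 2 or 3 of the libraries labelled Yap1/Taz iΔEC. The median of -0.47 was -0.21 with a pseudocount of 5, -0.0095 with no filter, -0.23 with the filter at 5 FPKM and -0.76 with limma-voom, and ran from -0.59 to 0.044 with each library left out, reversed without control replicate 3, where fewer members were tested.

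In the Lats2 experiment the 2 members called higher became 1 with no filter and 0 under the stricter threshold, and 0 to 3 with each library left out (0 without control replicate 1 or 2, 1 without Lats2 iΔEC replicate 2, and 3 without Lats2 iΔEC replicate 1). The median of 0.04 was 0.83 with the filter at 5 FPKM and -0.12 with limma-voom, and ran from -0.17 to 0.51 with each library left out. Among members that were not called, Alpl turned to 0.0109 with a pseudocount of 5 and 0.0115 with quantile normalization, and Serpinf1 to -0.0279 with limma-voom. With each library left out, Alpl ran from -0.61 to 0.54, Ibsp from -0.70 to 0.0259, Ptn from -0.24 to 0.77 and Serpinf1 from -0.0976 to 0.326, each with its sign turned at least once. Causes were not tested except where fewer genes were tested.

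Between mpECs and bmECs, deviations correlated at 0.307, 0.088 and 0.102 for the same replicate number and at -0.206 to 0.115 for different numbers. In the Yap1/Taz experiment these were -0.175, -0.123 and -0.155 against -0.154 to 0.235. In the Lats2 experiment they were 0.065 against -0.065, where the deviations of 2 libraries mirror each other. The labels state no pairs, so the main fit used none, but pairing of mpECs with bmECs remains possible. With the replicate block, 15 members were lower in bmECs, 1 (Bglap2) was lower in libraries labelled Yap1/Taz iΔEC (Bglap, adjusted p = 0.0753) and 2 were higher in libraries labelled Lats2 iΔEC. Low levels limit the tests, since 1 read in a transcript of 2 kb was worth 0.0405 to 0.132 FPKM.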
